A study of Mus musculus with 8 samples.

Results

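The collagen family was followed through 8 RNA-seq libraries of embryonic mouse gut epithelium, taken at E16.5. Members were the gene symbols of the deposited expression table that begin with Col, a number, a and a second number, with Col17a1 left out. They numbered 43 of 23393 symbols, and the rule reads symbols alone. Polyadenylated RNA came from 4 tissues, with 2 libraries of each: the forestomach, where the rodent stomach is squamous, the glandular hindstomach, the proximal part of the small intestine (called the intestine here) and the colon. The labels name ShhCre;R26YFP/+ embryos, untreated, as the source of the epithelium. In these embryos Cre recombinase driven from the Shh locus, which is active in gut endoderm, switches on a yellow fluorescent protein from the Rosa26 locus. The titles give the age as E16.5 and the age label as E16. The forestomach layer was separated by hand after Dispase. The hindstomach was shaken in 10 mM EDTA, the intestine and colon in 5 mM, and the released epithelium was frozen. The isolation method therefore coincides with the forestomach, and the EDTA concentration with the hindstomach. Nothing in the labels says that the 2 libraries of a tissue come from different embryos. The p-values thus reflect library-to-library spread alone, and this may be technical.

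Collagens are trimers of chains that wind into a triple helix. The fibrillar collagens I, III and V form the fibers of connective tissue, where fibroblasts and smooth muscle cells are their main source. Collagen IV forms the sheet of every basement membrane, and its chains are made by epithelium as well as by mesenchyme. Collagen VII builds the anchoring fibrils that hold stratified squamous epithelium to the tissue beneath it, and collagen VI forms beaded filaments close to cells.

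Depth and identity of the libraries were checked first. FPKM, the deposited unit, is the number of sequenced fragments scaled by transcript length and by the library's total, so it allows levels of different genes to be compared per length. Multiplied by exon lengths, the values fell on whole reads, which placed the totals between about 51600000 fragments in hindstomach replicate 2 and 121000000 in intestine replicate 1. Epithelial markers (10 genes, among them Epcam and Krt8) summed to 1592 to 4225 FPKM per library, lowest in forestomach replicate 2 and highest in hindstomach replicate 2. This sum was read as a sign of epithelium and was not used to tell squamous from glandular epithelium. In the library labelled forestomach replicate 1 that sum was carried by the keratins Krt8, Krt18 and Krt19 (1245, 458 and 1086 FPKM), with the claudins Cldn3, Cldn4 and Cldn7 at 0.539, 2.11 and 2.21. The library labelled forestomach replicate 1 stood apart from its partner: its 10 smooth muscle markers summed to 4688 FPKM against 27.3 in forestomach replicate 2, and its 10 squamous markers to 1582 against 19584. Results that rest on it are given with and without it.

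Promoters are printed here for Col3a1, the member with the highest level in a library, and for the 6 members called in a test below. They are RefSeq sequences of GRCm38.p6, on the strand of the gene, 5′ to 3′, taken from the 250 bases before the RefSeq start and trimmed of annotated exons. Capitals mark 3 short motifs, CCAAT and TATAAA and GGGCGG, each searched on both strands, so that its reverse complement is in capitals too. The matches of the 3 motifs printed here do not overlap.
Col3a1 (chr1:45311288-45311537, + strand): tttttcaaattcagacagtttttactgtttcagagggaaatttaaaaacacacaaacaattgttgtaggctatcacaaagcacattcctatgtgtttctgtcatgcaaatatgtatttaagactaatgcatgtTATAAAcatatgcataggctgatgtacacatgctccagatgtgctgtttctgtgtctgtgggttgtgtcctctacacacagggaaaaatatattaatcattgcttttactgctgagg
Col27a1 (chr4:63215162-63215411, + strand): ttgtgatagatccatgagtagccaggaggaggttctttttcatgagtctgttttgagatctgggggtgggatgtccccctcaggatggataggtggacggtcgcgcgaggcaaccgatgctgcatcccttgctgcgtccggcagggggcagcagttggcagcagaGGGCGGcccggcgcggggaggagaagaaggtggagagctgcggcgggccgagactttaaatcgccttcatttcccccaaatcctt
Col7a1 (chr9:108953336-108953585, + strand): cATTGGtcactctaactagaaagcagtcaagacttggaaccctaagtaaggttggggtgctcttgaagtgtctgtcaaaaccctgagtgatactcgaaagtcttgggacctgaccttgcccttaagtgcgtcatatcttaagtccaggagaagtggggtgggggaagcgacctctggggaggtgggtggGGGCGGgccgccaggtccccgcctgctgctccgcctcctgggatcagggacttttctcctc
Col8a1 (chr16:57754738-57754987, - strand): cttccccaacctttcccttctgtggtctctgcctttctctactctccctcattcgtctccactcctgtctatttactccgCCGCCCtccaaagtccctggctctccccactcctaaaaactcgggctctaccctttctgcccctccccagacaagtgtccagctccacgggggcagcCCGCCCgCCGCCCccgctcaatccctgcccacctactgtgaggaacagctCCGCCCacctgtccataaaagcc
Col11a2 (chr17:34038888-34039137, + strand): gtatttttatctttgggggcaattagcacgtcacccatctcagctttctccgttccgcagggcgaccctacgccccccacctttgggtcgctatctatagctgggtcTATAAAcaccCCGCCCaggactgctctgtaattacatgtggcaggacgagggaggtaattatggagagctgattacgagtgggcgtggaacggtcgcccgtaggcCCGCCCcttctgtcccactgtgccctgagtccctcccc
Col4a5 (chrX:141475169-141475384, + strand): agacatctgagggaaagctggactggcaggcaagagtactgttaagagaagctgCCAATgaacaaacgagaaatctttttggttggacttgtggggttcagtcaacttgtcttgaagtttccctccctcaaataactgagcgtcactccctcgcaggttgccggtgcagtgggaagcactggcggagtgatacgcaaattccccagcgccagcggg
Col4a6 (chrX:141474077-141474326, - strand): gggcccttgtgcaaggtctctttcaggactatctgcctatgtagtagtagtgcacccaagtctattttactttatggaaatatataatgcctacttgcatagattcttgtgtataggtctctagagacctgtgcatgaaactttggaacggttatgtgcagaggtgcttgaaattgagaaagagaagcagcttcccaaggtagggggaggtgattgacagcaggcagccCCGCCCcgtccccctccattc

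The windows differed in base composition. That of Col3a1 held 35.2% G and C, a TATAAA match and no GGGCGG, while those of Col8a1 and Col27a1 held 60.8% and 59.6%, with 4 and 1 matches to GGGCGG. Among the 34 members with a RefSeq window, 21 (61.8%) held GGGCGG, 11 (32.4%) CCAAT and 4 (11.8%) TATAAA. The same letters occurred in 32.7%, 33.8% and 12.4% of 32851 windows of that length. These are letter matches, given as a description. Col4a5 and Col4a6 lie head to head on chromosome X, with RefSeq starts 1343 bases apart, and Col4a1 and Col4a2 lie head to head on chromosome 8, with starts 21 bases apart and 22 exonic bases in common.

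The family was present at very uneven levels. The 43 members divide into 11 fibrillar collagens, 6 chains of collagen IV, 6 of collagen VI, 9 fibril-associated collagens (FACIT), 2 multiplexins, collagen VII, 3 short-chain collagens, 3 membrane-bound collagens, and Col26a1 and Col28a1. In at least 1 tissue 17 members averaged 10 FPKM or more, and 12 stayed under 1 FPKM in all 8 libraries. The highest value of 26 members was in colon replicate 2, and the lowest of 36 members lay in forestomach replicate 2 or intestine replicate 2, with ties at 0 counted for the first such library. The heat map of all members by library shows both features: the same rows are bright in most columns, and whole columns are bright or dark.

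**Figure D1:**
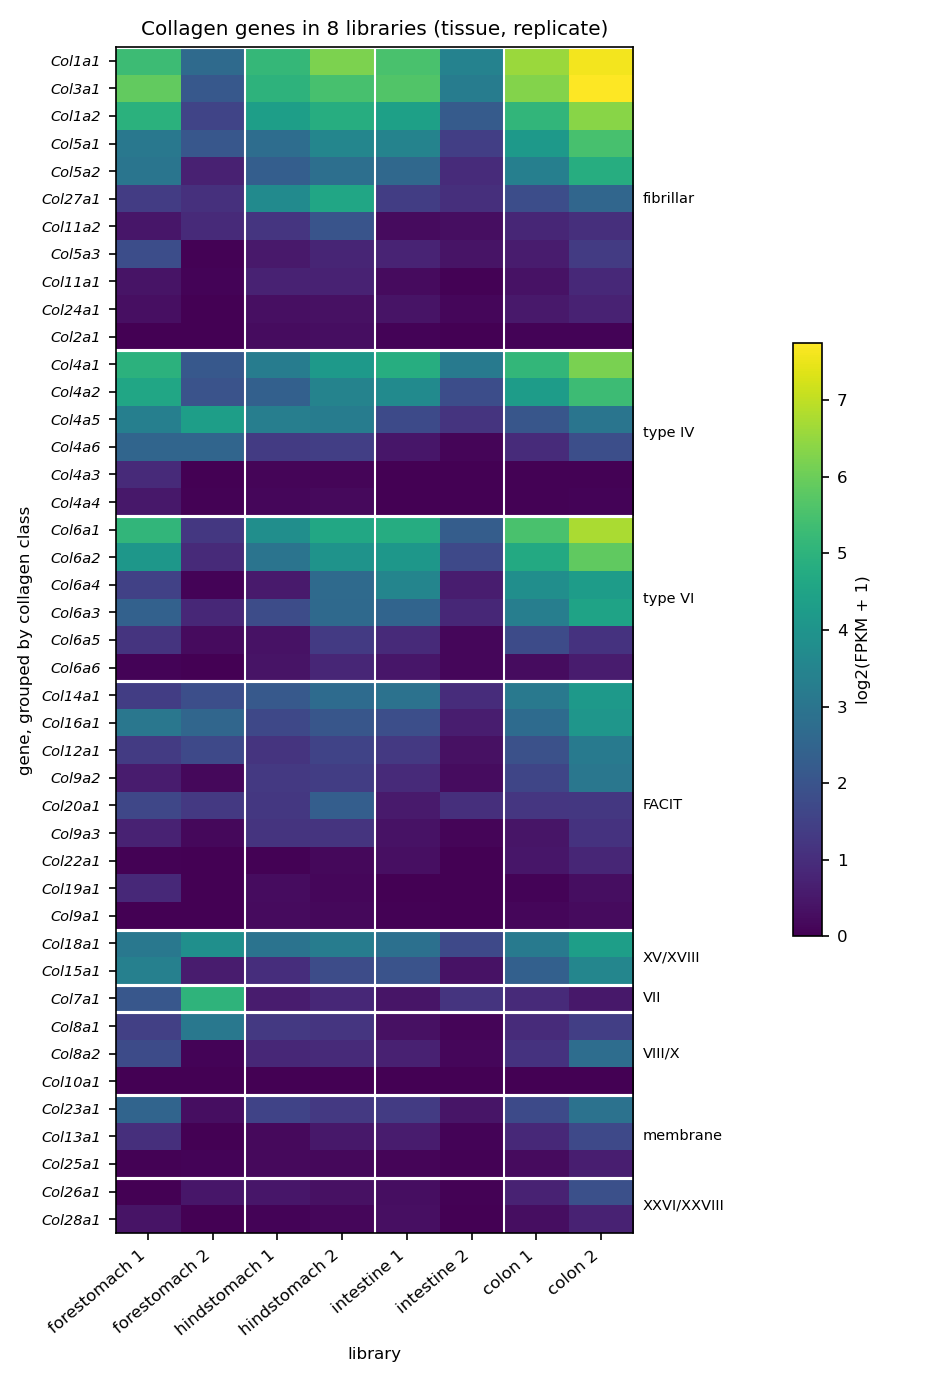
Level of each of the 43 collagen genes (rows, grouped by class and ordered by mean level) in the 8 libraries (columns, tissue and replicate number), as log2(FPKM + 1) on the color scale. Col1a1 and Col3a1 are the brightest rows in colon replicate 2 (193 and 213 FPKM), and most rows are darker in forestomach replicate 2 and intestine replicate 2 than in the other library of the tissue.

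Fibrillar collagens were the largest class in every library but forestomach replicate 2. In what follows, pairs of values are replicate 1 and then replicate 2. Col1a1, the first chain of collagen I (chr11:94936224-94953042, GRCm38, protein-coding), stood at 38.3 and 5.39 FPKM in forestomach, 34.7 and 73.2 in hindstomach, 44.6 and 9.82 in intestine, and 93.6 and 193 in colon. Col1a2, its partner chain, stood at 29.6 and 2.00 FPKM in forestomach, 19.3 and 27.3 in hindstomach, 20.2 and 3.70 in intestine, and 32.9 and 80.8 in colon. For Col3a1, the chain of collagen III, the values were 58.0 and 3.41 FPKM in forestomach, 31.0 and 43.7 in hindstomach, 49.2 and 8.53 in intestine, and 78.6 and 213 in colon. All 3 genes were highest in colon replicate 2 and lowest in forestomach replicate 2. Their 2 libraries differed most in the forestomach, where Col3a1 averaged 30.7 ± 38.6 FPKM (SD, n = 2), a spread above the mean itself, and both hindstomach libraries lay between the 2 forestomach libraries for Col3a1 and Col1a2.

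Collagen V, which sets fiber diameter by co-assembling with collagen I, was likewise highest in colon replicate 2, at lower levels. Col5a1 was at 7.55 and 3.31 FPKM in forestomach, 5.84 and 10.7 in hindstomach, 10.1 and 1.70 in intestine, and 17.3 and 44.3 in colon. Col5a2 was at 7.11 and 0.630 FPKM in forestomach, 4.01 and 6.13 in hindstomach, 5.15 and 0.919 in intestine, and 9.18 and 27.1 in colon. Its ratio to Col5a1 was 0.190 in forestomach replicate 2 and 0.509 to 0.941 in the other 7 libraries. The other chain, Col5a3, reached 2.53 FPKM in forestomach replicate 1 and 0.0421 in forestomach replicate 2, and ran from 0.314 to 1.54 FPKM in the other 6. Of the cartilage-type fibrillar genes, Col2a1 stayed at 0.213 FPKM or lower and Col11a1 at 0.868 or lower, while Col11a2, given below, reached 3.07. Another fibrillar gene, Col24a1, reached 0.687.

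Col27a1 and Col11a2 departed from that order. Col27a1, a fibrillar collagen best known from cartilage (chr4:63214004-63334991), stood at 1.61 and 1.12 FPKM in forestomach, 11.9 and 22.7 in hindstomach, 1.67 and 1.04 in intestine, and 2.56 and 4.91 in colon. Both hindstomach libraries exceeded all 6 others, and the hindstomach mean was 12.7 times that of the forestomach, 12.8 times that of the intestine and 4.64 times that of the colon. The colon libraries came next, both above both of the intestine and of the forestomach, and the libraries of the intestine and forestomach overlapped. Relative to Col1a1 in the same library, Col27a1 was at 0.0421 and 0.208 in forestomach, 0.344 and 0.310 in hindstomach, 0.0375 and 0.106 in intestine, and 0.0273 and 0.0255 in colon, so this order did not follow the level of collagen I. Cartilage and bone markers were low in the same libraries: 9 genes summed to 2.24 and 1.68 FPKM in the hindstomach. Under 1 FPKM were 8 of them in replicate 1 and 9 in replicate 2, among them Acan at 0.107 and 0.0441 FPKM. The 1 marker of this list that was tested, Hapln1, had a log2 change of 1.00 from forestomach to hindstomach. From hindstomach to intestine its change was 0.51, and with all libraries it was called in neither comparison. Without the library labelled forestomach replicate 1 the change of Hapln1 from forestomach to hindstomach was 1.11, and it was called higher. Pancreatic acinar markers summed to 3616 and 962 FPKM in the hindstomach. The part of either marker list in the level of Col27a1 was not tested. Col11a2, a chain of the minor fibrillar collagen XI (chr17:34039437-34066685), was likewise highest in the hindstomach, at 0.385 and 0.911 FPKM in forestomach, 1.27 and 3.07 in hindstomach, 0.181 and 0.218 in intestine, and 0.784 and 1.06 in colon.

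Collagen IV divided into the ubiquitous chains and the others. Col4a1 and Col4a2 encode the chains of the common network. Col4a1 was at 30.1 and 3.37 FPKM in forestomach, 8.61 and 16.9 in hindstomach, 27.3 and 7.97 in intestine, and 33.6 and 71.2 in colon. Col4a2 was at 23.0 and 2.97 FPKM in forestomach, 4.17 and 9.98 in hindstomach, 12.0 and 2.58 in intestine, and 18.3 and 38.4 in colon. Both were highest in colon replicate 2, and the ratio of Col4a2 to Col4a1 ran from 0.323 to 0.882. Col4a5 and Col4a6 encode chains of a network found under certain epithelia and around smooth muscle. Col4a5 (chrX:141475385-141689234) was at 9.10 and 19.3 FPKM in forestomach, 8.94 and 8.51 in hindstomach, 2.32 and 1.22 in intestine, and 3.17 and 7.05 in colon, highest in forestomach replicate 2, the library in which 14 of the 30 members tested had their lowest value. Col4a6 (chrX:141165403-141474076) was at 4.71 and 4.81 FPKM in forestomach, 1.53 and 1.71 in hindstomach, 0.372 and 0.0817 in intestine, and 0.950 and 2.62 in colon, nearly equal in the 2 forestomach libraries.

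Ratios between chains varied in both networks. The ratio of Col4a5 to Col4a1 was 0.302 and 5.74 in forestomach, 1.04 and 0.504 in hindstomach, 0.0849 and 0.153 in intestine, and 0.0943 and 0.0991 in colon. It was under 0.2 in all 4 intestine and colon libraries and at least 0.302 in all 4 stomach libraries. The ratio of Col6a2 to Col6a1 stayed between 0.490 and 0.632 in all 8, whereas that of Col6a3 to Col6a1 ran from 0.130 to 0.568 and that of Col6a4 to Col6a1 from 0.0314 to 0.388. Col4a3 and Col4a4, the partner chains of the kidney and lung network, were highest in forestomach replicate 1, at 0.900 and 0.427 FPKM, and at most 0.0700 and 0.137 in the other 7 libraries.

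**Figure D2:**
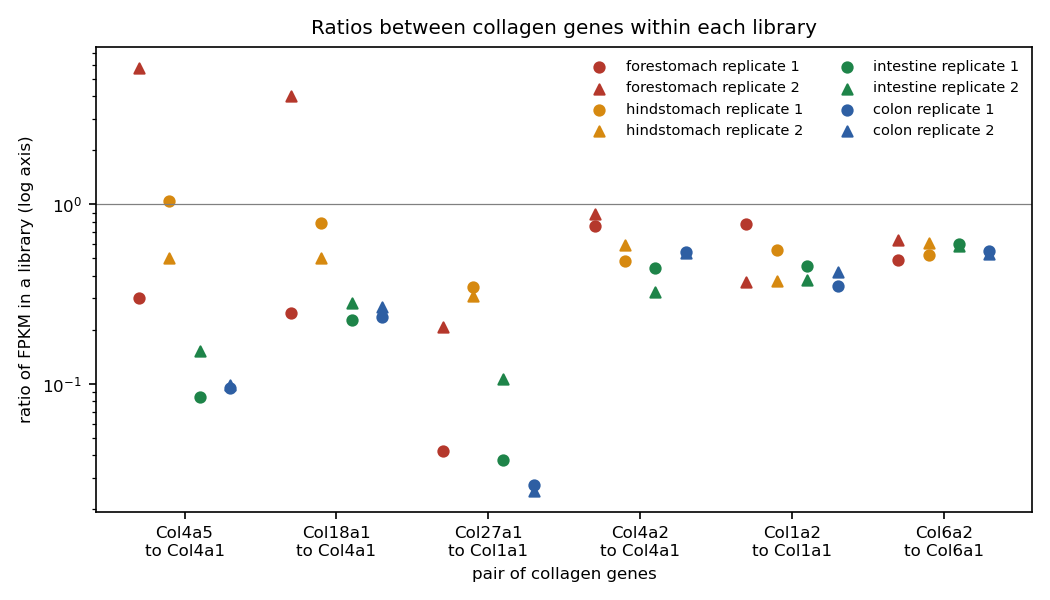
Ratio of the FPKM of 2 collagen genes within each library (vertical axis, logarithmic), for 6 gene pairs, colored by tissue, circles replicate 1 and triangles replicate 2. The ratio of Col4a5 to Col4a1 spans 0.0849 to 5.74 and that of Col27a1 to Col1a1 is highest in the 2 hindstomach libraries, while that of Col6a2 to Col6a1 stays between 0.490 and 0.632.

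Collagen VI was led by Col6a1. This chain was at 33.1 and 1.41 FPKM in forestomach, 13.1 and 24.1 in hindstomach, 26.7 and 3.85 in intestine, and 45.3 and 107 in colon. Col6a2 was at 16.2 and 0.889 FPKM in forestomach, 6.87 and 14.6 in hindstomach, 16.1 and 2.25 in intestine, and 24.8 and 56.9 in colon. Col6a3, the longest of the 3 chains, was at 4.30 and 0.800 FPKM in forestomach, 2.46 and 5.27 in hindstomach, 4.60 and 0.829 in intestine, and 8.90 and 21.4 in colon. All 3 were lowest in forestomach replicate 2 or intestine replicate 2 and highest in colon replicate 2. Col6a4 encodes an alternative to Col6a3 and had another spread: 1.81 and 0.0442 FPKM in forestomach, 0.475 and 5.42 in hindstomach, 10.4 and 0.552 in intestine, and 13.1 and 18.3 in colon. Its 2 hindstomach libraries differed more than those of Col6a1, and both colon libraries were above all others. The other alternative chains were low: Col6a5 reached 2.398 FPKM in colon replicate 1 and Col6a6 0.797 in hindstomach replicate 2.

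Of the remaining basement membrane and epithelial collagens, Col18a1 and Col7a1 carried most signal. Col18a1, a heparan sulfate-bearing multiplexin of basement membranes and the precursor of endostatin, stood at 7.52 and 13.5 FPKM in forestomach, 6.77 and 8.48 in hindstomach, 6.19 and 2.25 in intestine, and 7.87 and 19.1 in colon. Its highest library was 8.45 times its lowest, the smallest spread among the 30 members tested. The other multiplexin, Col15a1, reached 10.7 FPKM in colon replicate 2 and was lowest, at 0.313, in intestine replicate 2. Col7a1, the chain of the anchoring fibrils (chr9:108953586-108984875), was at 3.30 and 31.6 FPKM in forestomach, 0.494 and 0.802 in hindstomach, 0.361 and 1.25 in intestine, and 0.897 and 0.414 in colon. Both forestomach libraries were above all 6 others, yet replicate 2 was 9.58 times replicate 1, and the order within the forestomach was the reverse of that of Col1a1 and Col3a1.

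Among the fibril-associated collagens, which decorate fibers of collagen I or II, Col14a1 and Col16a1 were highest. Col14a1 was at 1.64 and 2.60 FPKM in forestomach, 3.48 and 5.46 in hindstomach, 6.59 and 0.991 in intestine, and 7.79 and 17.2 in colon. Col16a1 was at 7.43 and 4.85 FPKM in forestomach, 2.19 and 3.16 in hindstomach, 2.62 and 0.537 in intestine, and 5.59 and 15.8 in colon. The rest of the class reached 7.91 FPKM (Col12a1), 7.42 (Col9a2), 3.98 (Col20a1) and 1.26 (Col9a3), and Col9a1, Col19a1 and Col22a1 stayed under 1. The short-chain Col8a1, known from vessels and the cornea (chr16:57624258-57754737), was at 1.77 and 7.63 FPKM in forestomach, 1.42 and 1.28 in hindstomach, 0.268 and 0.0752 in intestine, and 0.939 and 1.68 in colon. Its partner Col8a2 went the other way within the forestomach, at 2.404 and 0.0479 FPKM. The last of this class, Col10a1, the marker of hypertrophic cartilage, was at 0 in 7 libraries, where 3 reads, the upper limit for a count of 0, would give at most 0.0172 FPKM, and at 0.00619 FPKM, 1 read, in hindstomach replicate 2.

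The membrane-bound collagens were led by Col23a1, at 4.66 and 0.222 FPKM in forestomach, 1.95 and 1.43 in hindstomach, 1.52 and 0.361 in intestine, and 2.32 and 6.57 in colon. Col13a1 reached 2.27 FPKM in colon replicate 2 and fell to 3 reads (0.0117 FPKM) in forestomach replicate 2, and Col25a1 stayed at 0.559 or lower. Col26a1 was above 1 FPKM in colon replicate 2 alone, at 2.67, and Col28a1 reached 0.674 there. Col1a1, Col1a2, Col3a1, Col6a1 and Col6a2 had at least 344 whole reads in every library. Other members given in every library fell lower, to 21 reads for Col6a4 and 71 for Col23a1 in forestomach replicate 2 and 39 for Col4a6 in intestine replicate 2, and their lowest values carry more counting error.

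**Figure D3:**
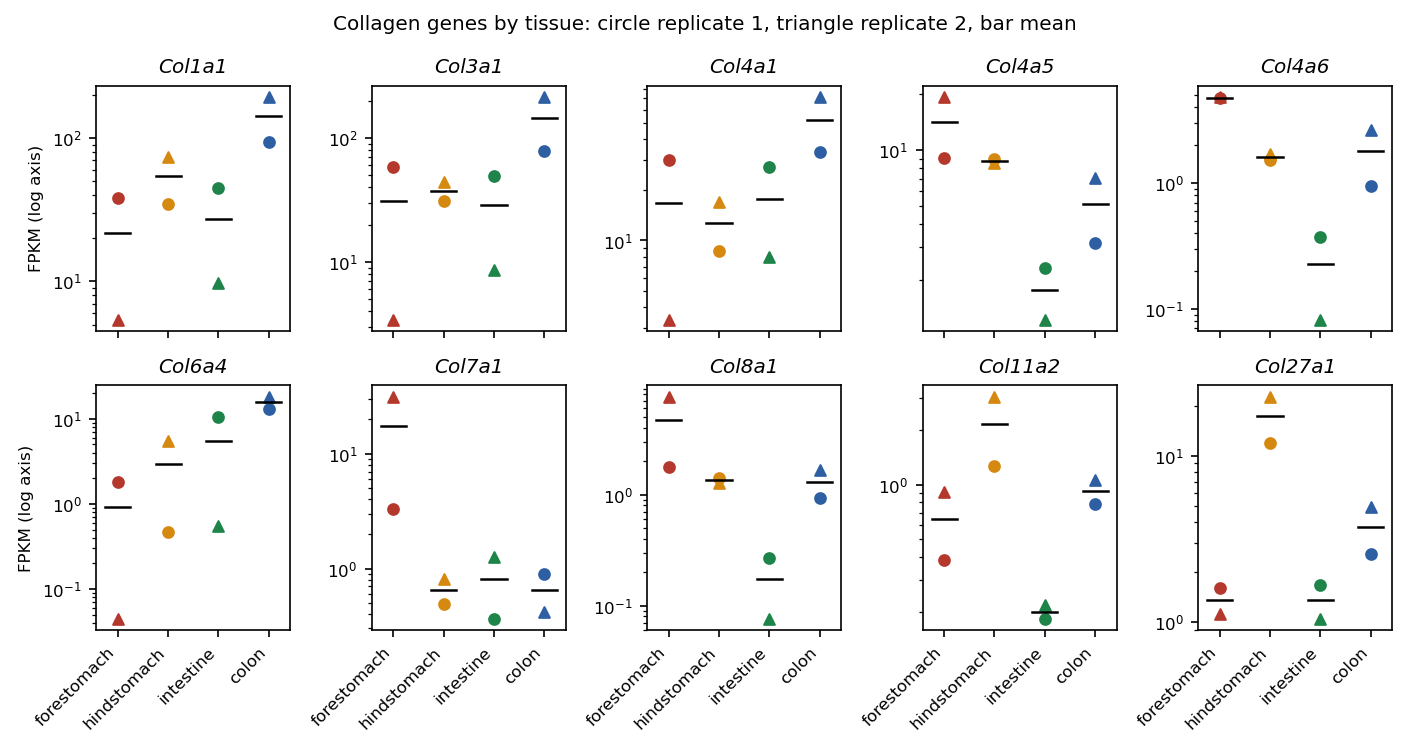
FPKM of 10 collagen genes (logarithmic vertical axes, each on its own range) in the 4 tissues, circles replicate 1, triangles replicate 2 and bars the mean of the 2. Col27a1 is highest in both hindstomach libraries (11.9 and 22.7), Col7a1 in both forestomach libraries (3.30 and 31.6), and Col1a1 and Col3a1 in both colon libraries.

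Summed over the 43 members, the level was 316 and 116 FPKM in forestomach, 181 and 312 in hindstomach, 259 and 53.6 in intestine, and 427 and 994 in colon. The highest library, colon replicate 2, was at 0.303% of its library's summed FPKM and the lowest, intestine replicate 2, at 0.0152%. Fibrillar collagens made up 46.1 and 14.5% in forestomach, 60.5 and 60.5 in hindstomach, 51.1 and 49.2 in intestine, and 55.3 and 57.0 in colon of the summed collagen FPKM. The 2 libraries of a tissue lay within 2 percentage points of each other in the hindstomach, intestine and colon, although their sums differed 1.72-fold, 4.83-fold and 2.33-fold. Collagen IV made up 21.6 and 26.3% in forestomach, 12.9 and 12.0 in hindstomach, 16.2 and 22.1 in intestine, and 13.1 and 12.0 in colon. All other classes together held 32.3 and 59.2% in forestomach, 26.5 and 27.5 in hindstomach, 32.7 and 28.6 in intestine, and 31.5 and 31.0 in colon.

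Forestomach replicate 2 had the outlying composition. Its fibrillar share was 14.5%, and Col7a1 alone held 27.2% of its collagen, against 2.34% or less elsewhere. The 6 members with the highest mean levels (Col1a1, Col3a1, Col6a1, Col1a2, Col4a1 and Col6a2) held 62.7% to 72.6% of the collagen in the other 7 libraries and 14.2% in this one. In the library labelled forestomach replicate 1 they held 65.0%, within the range of the hindstomach, intestine and colon.

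**Figure D4:**
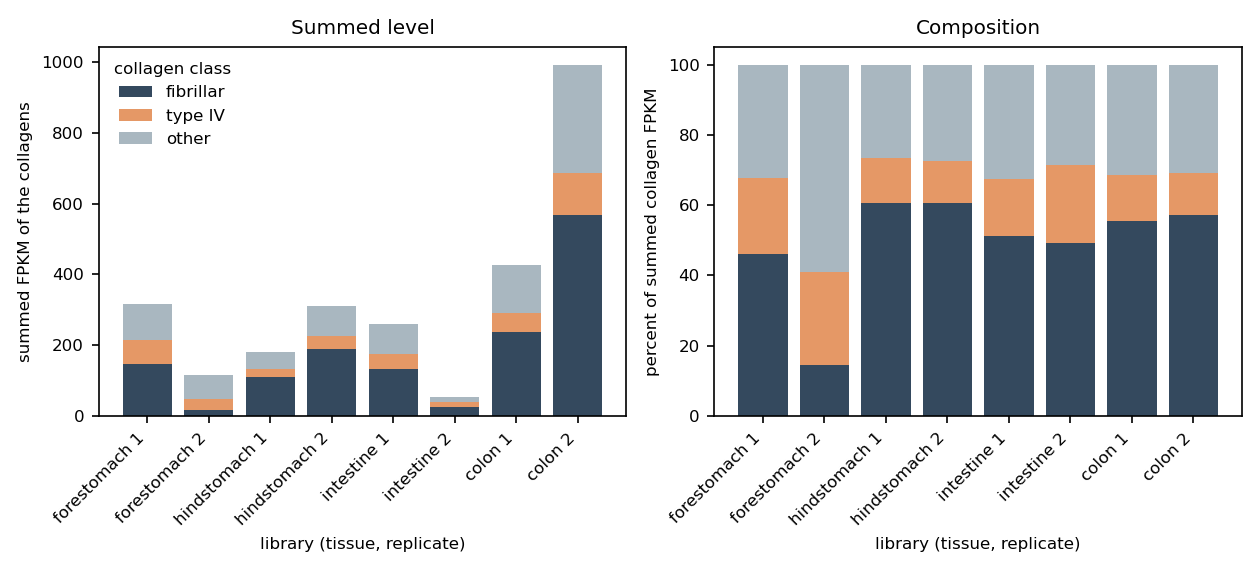
Summed FPKM of the 43 collagens in each library (left) and the percentage of that sum in 3 groups, fibrillar, type IV and all other collagens (right), with tissue and replicate number on the horizontal axes. Sums run from 53.6 FPKM in intestine replicate 2 to 994 in colon replicate 2, while the fibrillar share lies between 46.1% and 60.5% in 7 libraries and at 14.5% in forestomach replicate 2.

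Libraries of one tissue differed in most collagens together. The order within each pair below was set by the summed collagen level, so the direction itself is no result. Of all 43 members, 31 were higher in forestomach replicate 1 than in replicate 2, 34 in hindstomach replicate 2, 38 in intestine replicate 1 and 39 in colon replicate 2, each against the other library of the tissue. The 43 include the 12 members under 1 FPKM in all libraries, and the share of all genes higher in the same libraries was not counted. Over all genes tested, the median log2 differences in these directions were -0.17, -0.01, 0.08 and 0.15. Differences of 2-fold or more on the log2(FPKM + 1) scale were counted in 1 direction, higher in the library with more collagen. The count covered the 30 members that had at least 1 FPKM in at least 2 libraries. They numbered 15 (50%) in the forestomach, 4 (13.3%) in the hindstomach, 15 (50%) in the intestine and 18 (60%) in the colon. Over the 12894 genes that passed the same filter, the shares in the same direction were 15.8%, 1.36%, 2.68% and 4.9%. The direction was chosen from the collagens, so these shares are not an even comparison. In the forestomach Col7a1, Col8a1 and Col4a5 were at least 2-fold higher in the other library (-2.92, -1.64 and -1.01).

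Mesenchyme, smooth muscle and endothelial markers differed between the same libraries. The 18 mesenchyme markers summed to 408 and 69.4 FPKM in forestomach, 95.5 and 108 in hindstomach, 112 and 22.2 in intestine, and 178 and 508 in colon. Their ratio within a tissue, in the order above, was 5.89, 1.13, 5.06 and 2.85, against 2.72, 1.72, 4.83 and 2.33 for the collagens. Smooth muscle markers had ratios of 172, 2.21, 4.27 and 2.02, and endothelial markers 27.6, 1.50, 5.31 and 2.50, whereas epithelial markers had 1.93, 1.12, 0.954 and 1.06. In the forestomach the epithelial ratio was set by Krt8, Krt18 and Krt19: these 3 of 10 markers were higher in replicate 1, and the median over the 10 was -1.16 on the log2(FPKM + 1) scale. Of the mesenchyme markers, 15 of 18 were under 1 FPKM in forestomach replicate 2, among them Vim at 0.745 and Pdgfra at 0.170, and 12 of 18 in intestine replicate 2. The part of these markers in the collagen differences was not tested. In bulk RNA, fewer cells of a type and less RNA per cell cannot be told apart.

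The exceptions to the shared order are the members that were higher in the library with less collagen. In the forestomach these were led by Col7a1 (-2.92 on the log2 scale, replicate 1 minus replicate 2), and Col8a1, Col4a5 and Col18a1 followed. In the intestine Col7a1 was again the largest exception, at -0.73, and in the colon Col6a5, with Col7a1 the other one of the 2, at -0.42.

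**Figure D5:**
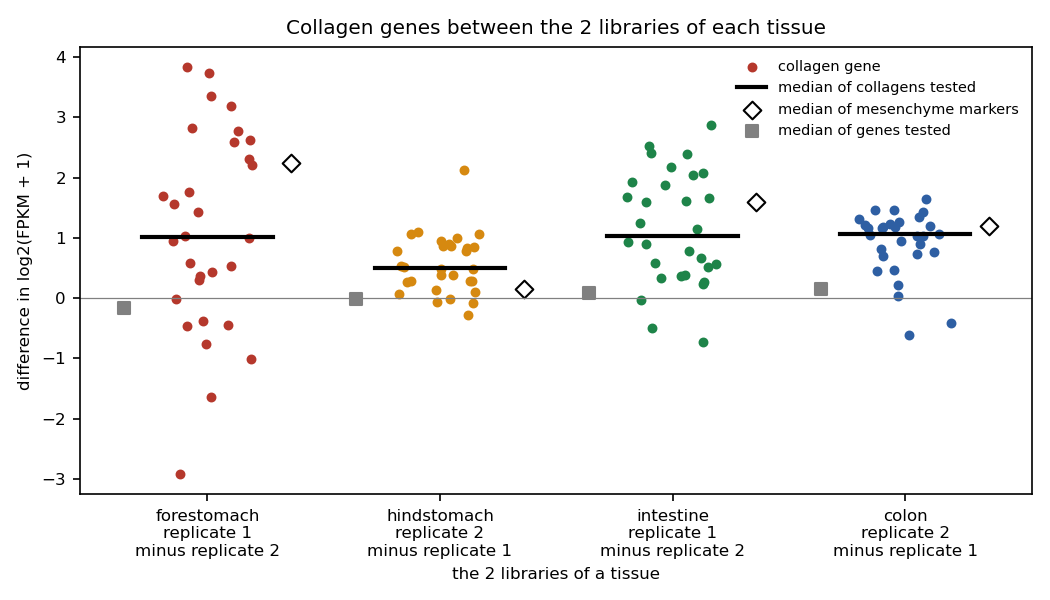
Difference in log2(FPKM + 1) between the 2 libraries of each tissue for the 30 collagen genes tested (points), with their median (bar), the median of 12894 genes tested (grey square) and the median of the mesenchyme markers tested (open diamond). Collagen medians are 1.01, 0.50, 1.04 and 1.06, against -0.17, -0.01, 0.08 and 0.15 for all genes tested and 2.24, 0.15, 1.60 and 1.19 for mesenchyme markers.

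The first comparison set the glandular against the squamous stomach. Of the collagens, Col27a1 rose in the hindstomach, by 2.90 ± 0.40 (SE, limma adjusted p = 0.0174) on the log2(FPKM + 1) scale, and none was called lower. That is 1 of the 30 tested (3.33%) called higher at an adjusted p under 0.05 and at least 2-fold, against 4.26% of all 12894 genes, and 0 called lower, against 1.33%. At an unadjusted limma p under 0.05, where the share of all genes was not counted, 2 members were higher and 2 lower. Those higher were Col27a1 and Col11a2, the latter at 0.90 ± 0.34 (SE, limma adjusted p = 0.143). Those lower were Col7a1, at -2.85 ± 0.89 (SE, limma adjusted p = 0.107), and Col4a6, at -1.14 ± 0.33 (SE, limma adjusted p = 0.0929). The call of Col27a1 ended when either hindstomach or either intestine library was left out (adjusted p between 0.0545 and 0.129), and its hindstomach libraries did not overlap with those of the other tissues in level. Both hindstomach libraries were above both forestomach libraries for 5 of the 30 (47.5% of all genes tested) and both below for another 5 (8.93%), and the other 20 members overlapped.

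Without the library labelled forestomach replicate 1, 28 members could be tested, and the remaining forestomach library was assumed to vary like the other tissues. Col27a1 rose, by 3.05 ± 0.47 (SE, limma adjusted p = 0.00707). Col7a1 fell, at -4.31 ± 0.37 (SE, limma adjusted p = 0.00125), and so did Col8a1, at -1.88 ± 0.27 (SE, limma adjusted p = 0.00568). Their size depended on the forestomach library used. With all libraries Col8a1 was at -1.06 (limma adjusted p = 0.226), and without forestomach replicate 2 it was at -0.24 (limma adjusted p = 0.498) and Col7a1 at -1.39 (limma adjusted p = 0.0314). The 1 member higher and 2 lower compare with 14.3% and 6.55% of 12502 genes called in those directions. The squamous markers, of which 8 of 8 tested fell in this fit, summed to 1582 and 19584 FPKM in forestomach, 177 and 106 in hindstomach, 4.73 and 4.50 in intestine, and 11.004 and 14.5 in colon. Their part in the result was not tested. The median change of the 30 members was 0.24 in the deposited scaling, -0.00 after median-of-ratios scaling and -0.12 after quantile normalization, against 0.39, 0.05 and 0.07 for all genes, so it was below that of all genes in each. Without the library labelled forestomach replicate 1 the 28 members had a median of 0.97, against 0.34 for all genes. Calls over all genes divided into 549 higher and 172 lower, against 223 and 232 and then 271 and 288 in the other 2 scalings.

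In the intestine, set against the hindstomach, Col27a1 fell, at -2.91 ± 0.40 (SE, limma adjusted p = 0.0206). It was the 1 member of 30 called lower (3.33%, against 2.47% of all genes), and 0 were called higher, against 2.55%. No collagen had both intestine libraries above both hindstomach libraries, against 24.3% of genes tested. Of the 30 tested 10 had both below, against 53.5%. Of all 43 members 18 did, and the matching share over all genes was not counted. At an unadjusted limma p under 0.05, where the share of all genes was not counted, 6 members were lower and 0 higher. They included Col4a5, -1.84 ± 0.46 (SE, limma adjusted p = 0.0747), and Col11a2, -1.34 ± 0.34 (SE, limma adjusted p = 0.0740), whose means in the hindstomach were 4.93 and 10.9 times those in the intestine. Col27a1 was not called when any 1 library of these 2 tissues was left out (limma adjusted p 0.0958 to 0.211).

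Without the library labelled forestomach replicate 1, which takes no part in this difference but in the shared estimate of spread, 5 members fell: Col27a1, Col4a5, Col11a2, Col8a1 and Col4a6. That is 17.9% of the 28 tested, against 9.96% of genes called lower. Col4a5 gave -1.84 ± 0.36 (SE, limma adjusted p = 0.0174) and Col4a6 -1.10 ± 0.32 (SE, limma adjusted p = 0.0483). For Col8a1 the change was -1.01 ± 0.22 (SE, limma adjusted p = 0.0230). Mesenchyme markers summed to 95.5 and 108 FPKM in the hindstomach and 112 and 22.2 in the intestine. The part of these markers in the result was not tested. The 30 members had a median of -0.66 in the deposited scaling, -0.42 under median-of-ratios scaling and -0.32 under quantile normalization, against -0.25, 0.00 and -0.02 for all genes. Calls over all genes were 329 higher and 319 lower, against 464 and 240 and then 366 and 245.

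Collagens stood higher in the colon than in the intestine, but none passed the test. Of all 43 members, with no matching share over all genes counted, 38 had both colon libraries above both intestine libraries, and 0 both below. Among the 30 tested these were 28 (93.3%), against 57.6% of the genes tested, and 18.9% of the genes had both below. The mean of Col1a1 was 5.26 times as high in the colon, that of Col3a1 5.05 times and that of Col4a1 2.97 times. Limma called 0 of 30 higher and 0 lower, against 0.38% and 0% of all genes. At an unadjusted limma p under 0.05, where the share of all genes was not counted, lay 10 of 30, all higher. Col16a1 came to 2.16 ± 0.58 (SE, limma adjusted p = 0.290), Col12a1 to 1.73 ± 0.50 (SE, limma adjusted p = 0.309) and Col1a1 to 2.61 ± 1.06 (SE, limma adjusted p = 0.351). Without forestomach replicate 1 there were again 0 calls, against 2.5% and 0.04% of genes, and 21 of 28 had an unadjusted p under 0.05.

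The median change of the 30 members was 1.67, against 0.23 for all genes, and 1.36 and 1.23 under the other scalings, against -0.08 and -0.05. Mesenchyme markers had a median of 1.91 and smooth muscle markers of 2.59, with 0 called in either list, and Acta2 stood at 90.8 and 20.7 FPKM in the intestine and 209.8 and 443 in the colon. The part of these markers in the collagen difference was not tested. The members that overlapped between the 2 tissues among those tested were Col7a1 and Col5a3. The difference between the colon libraries was itself large: Col3a1 averaged 146 ± 95.0 FPKM (SD, n = 2) in the colon and 28.8 ± 28.7 FPKM (SD, n = 2) in the intestine.

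Genes that make, cross-link, bind and degrade collagen were read from lists of 22 modification and folding genes, 16 processing and cross-linking genes, 15 basement membrane partners, 11 receptors and 14 collagenases and inhibitors. With all libraries, 4.26% of all genes tested were called higher and 1.33% lower from forestomach to hindstomach. From hindstomach to intestine these shares were 2.55% and 2.47%, and from intestine to colon 0.38% and 0%. The lists are short, so 1 call weighs much in each. In the colon against the intestine the fit with all libraries called 1 higher in total: Lamb3, the laminin β3 chain of the anchoring complex of epithelia, at 2.37 ± 0.28 (SE, limma adjusted p = 0.0424). The medians of the 5 lists were 0.85, 1.25, 1.66, 0.81 and 1.47, against 0.23 for all genes. Lamb3 stood at 15.3 and 14.5 FPKM in forestomach, 8.61 and 11.9 in hindstomach, 0.628 and 0.354 in intestine, and 5.29 and 8.31 in colon, so the intestine was the low tissue, and it fell there against the hindstomach as well, at -2.91 ± 0.28 (limma adjusted p = 0.0104). The other partners with the highest means, Agrn (agrin) and Lama5 (a laminin α chain of mature basement membranes), were called in no comparison with all libraries. Agrn was at 9.38 and 48.1 FPKM in forestomach, 26.6 and 36.5 in hindstomach, 19.9 and 20.0 in intestine, and 28.4 and 35.6 in colon. Lama5 was at 4.91 and 32.7 FPKM in forestomach, 17.7 and 41.2 in hindstomach, 2.70 and 1.60 in intestine, and 7.71 and 12.0 in colon, lowest in the intestine.

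Among the enzymes and chaperones, Sec23a rose in the intestine against the hindstomach, at 1.81 ± 0.27 (limma adjusted p = 0.0249). It encodes a coat protein of the vesicles that carry procollagen and other cargo out of the endoplasmic reticulum. It was the 1 called of 20 tested, against 2.55% of all genes called higher. The abundant members of that list, the prolyl hydroxylase subunit and disulfide isomerase P4hb and the isomerase Ppib, are used by many secreted proteins. P4hb was at 313 and 416 FPKM in forestomach, 580.2 and 609.9 in hindstomach, 968 and 1069 in intestine, and 819 and 563 in colon. Ppib was at 369 and 264 FPKM in forestomach, 543 and 506 in hindstomach, 284 and 247 in intestine, and 283 and 322 in colon. Serpinh1, the collagen-specific chaperone also called Hsp47, was at 80.0 and 50.9 FPKM in forestomach, 179 and 179 in hindstomach, 115 and 55.9 in intestine, and 103 and 199 in colon; it falls outside the rule for named genes and was chosen after its values were seen. It was lowest in forestomach replicate 2 and intestine replicate 2, the libraries with the least collagen.

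In the processing and cross-linking list, 2 of 11 tested genes rose from forestomach to hindstomach and again from hindstomach to intestine, against 4.26% and 2.55% of all genes. They were Mep1a and Mep1b, the meprin subunits, metalloproteases of the intestinal brush border that can trim procollagen and cut other substrates. Mep1a was at 0 and 0 FPKM in forestomach, 12.4 and 12.0 in hindstomach, 99.9 and 117 in intestine, and 109 and 93.1 in colon. Mep1b was at 0.0347 and 0.00784 FPKM in forestomach, 9.34 and 13.1 in hindstomach, 76.1 and 105 in intestine, and 69.6 and 32.0 in colon. They rose into the intestine, by 3.05 ± 0.17 and 2.91 ± 0.39 on the log2 scale (limma adjusted p = 0.00345 and 0.0204). Of 7 receptors tested, Adgrg1, a receptor for collagen III, fell in the intestine, at -1.84 ± 0.29 (limma adjusted p = 0.0259), from 49.5 and 59.5 to 13.9 and 14.9 FPKM. The receptors with the highest means, the integrin β1 chain Itgb1 and the discoidin receptor Ddr1, were not called with all libraries: Itgb1 ran from 44.4 to 135 FPKM and Ddr1 from 14.4 to 36.2. Of 8 collagenases and inhibitors tested, the membrane protease Mmp15 fell in the intestine too, at -2.16 ± 0.31 (limma adjusted p = 0.0221), from 43.3 and 49.8 to 10.97 and 8.38 FPKM. Mmp14, a membrane protease that cuts fibrillar collagen, had the highest mean and was not called, at 15.7 and 29.7 FPKM in forestomach, 21.5 and 22.7 in hindstomach, 18.3 and 10.1 in intestine, and 29.6 and 69.0 in colon.

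Without the library labelled forestomach replicate 1 more of these genes were called. From forestomach to hindstomach the modification and folding genes then had 2 higher and 1 lower of 20, the processing and cross-linking genes 2 and 0 of 9, the receptors 2 and 0 of 7, and the collagenases and inhibitors 1 and 0 of 8, against 14.3% and 6.55% of all genes. Those higher were Creb3l1, Plod3, Mep1a, Mep1b, Adgrg1, Itgb1 and Mmp15, and of the basement membrane partners Nid1 (nidogen) rose. P3h2, a prolyl 3-hydroxylase of collagen IV, fell, and so did Lama3, a laminin chain of epithelial basement membranes. Lama3 stood at 0.921 and 10.3 FPKM in forestomach against 0.743 and 0.774 in hindstomach, and P3h2 at 0.952 and 7.43 against 0.211 and 0.469. Like Col7a1, both were higher in forestomach replicate 2 than in the library labelled forestomach replicate 1. From hindstomach to intestine the laminin chains Lamc1, Lamb3, Lama5 and Lamb1 fell. The 12 basement membrane partners tested had a median change of -1.28, against -0.25 for all genes. Of the 4 collagen IV chains tested Col4a5 and Col4a6 fell, while Col4a1 and Col4a2 changed by 0.28 and -0.14 and were not called. In the same fit 4 of 20 modification and folding genes fell and 1 rose, against 9.96% and 7.42% of all genes. Creb3l1, a transcription factor of collagen secretion and 1 of those that fell, was at 37.5 and 56.7 FPKM in the hindstomach and 7.98 and 5.28 in the intestine.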

How the data were processed

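Poly(A) RNA-seq values of 8 libraries were used. The authors deposited FPKM per gene symbol. STAR 2.4.2a and mm10 (GRCm38) are named per the submitters' processing notes, while for the FPKM program, the annotation and strandedness nothing is given in the sources used here. Without strand, overlapping genes may share reads: Col9a3 shares 6.07% of its exonic length with Tcfl5. Another 4 columns matched no sample and were not used. FPKM is relative to the library, so abundant genes lower all others.

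Members and lists were chosen with earlier results of these data known. Values in every library are given for members averaging 10 FPKM in a tissue, called in a comparison with all libraries or without forestomach replicate 1, or highest in their class. From other lists, up to 4 called genes per comparison and the 2 with the highest mean are named; 1 called gene of these lists is not reported here.

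The 12894 genes, 30 of them members, that reached 1 FPKM in 2 or more libraries were fitted as log2(FPKM + 1) with 4 tissue means in limma 3.58.1 (R 4.3.3, eBayes with trend, Benjamini-Hochberg adjustment over all genes tested within each comparison). A gene was called at an adjusted p under 0.05 and a change of at least 2-fold. The scale understates changes of low genes. The fit was tested on simulated data.

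Depth came from FPKM times the exonic length in GENCODE M21: 77.5% to 79.1% of genes with under 2000 reads lay within 0.02 of a whole read, against 3.87% to 4.35% with shuffled lengths. Reads were whole in all libraries for 35 of 43 members. They served for depth, floors and read counts and not for the tests, and floors and counts cover counting error alone. Alternatives were other scalings, pseudocount, filters, variance models, separate fits of 2 tissues, the replicate number as a block, and leaving out single libraries.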

Additional observations from a re-analysis of the deposited data

How the results depend on the processing

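The log2 changes of the collagens recomputed under the alternatives (Col7a1, Col8a1 and Col27a1 from forestomach to hindstomach, Col27a1, Col11a2, Col4a5, Col4a6 and Col8a1 from hindstomach to intestine, and Col9a2, Col12a1 and Col16a1 from intestine to colon) kept their direction wherever they could be fitted. Among all 30 members tested the number above 0 moved with the scaling: it was 18, 15 and 14 in the deposited, median-of-ratios and quantile scalings in the first comparison, 3, 6 and 8 in the second and 29, 29 and 27 in the third. The count of collagens called higher from forestomach to hindstomach was 1, and 0 with array weights, 0 with only the 2 tissues compared and 0 to 1 when each library was left out. Collagens called lower there numbered 0, and 1 with quantile normalization and 0 to 2 over the left-out libraries. Collagens called lower from hindstomach to intestine numbered 1, and 5 with array weights, 5 with only the 2 tissues compared and 0 to 5 over the left-out libraries. With array weights Col27a1 had an adjusted limma p of 0.29 in the first comparison. No alternative called a collagen between intestine and colon.

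Over all genes, calls from forestomach to hindstomach numbered 721, and 455 with median-of-ratios scaling, 78 with array weights, 107 with only the 2 tissues compared, and 75 to 3126 over the left-out libraries (3126 without forestomach replicate 2, 2610 without forestomach replicate 1). From hindstomach to intestine they numbered 648, and 392 with no filter, 2358 with array weights, 2323 with only the 2 tissues compared and 0 to 2173 over the left-out libraries. Between intestine and colon they numbered 49, and 22 with pseudocount 0.1, 12 with at least 5 FPKM in 2 libraries, 426 with array weights, 93 with only the 2 tissues compared and 0 to 317 over the left-out libraries. The cause was not tested.

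The correlations of the deviations of same-numbered libraries ran from -0.58 (intestine and colon) to 0.27 (hindstomach and intestine). With 2 libraries a tissue, these correlations cannot decide whether libraries were paired or shared a batch under the same or another number. With the replicate block the calls over all genes were 335, 237 and 9, and no collagen call was gained or lost. Class shares within a library are fixed under any scaling by library, and the forestomach mean of the fibrillar share, 30.3%, was 14.5% or 46.1% with 1 forestomach library left out. With 2 libraries a tissue an exact permutation test could not pass the threshold, and 5 of the members tested had no whole-read counts.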

Other observations

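Markers of other cell types gave these sums, as values with no explanation. The 10 pancreatic acinar markers stood at 39.2 and 1.98 FPKM in forestomach, 3616 and 962 in hindstomach, 2339 and 398 in intestine, and 1474 and 450.1 in colon, higher in replicate 1 than in replicate 2 of all 4 tissues, whereas the collagen sum was higher in replicate 1 only in the forestomach and the intestine. The 10 leukocyte markers stood at 165 and 13.6 FPKM in forestomach, 42.5 and 34.0 in hindstomach, 45.1 and 23.9 in intestine, and 44.9 and 95.5 in colon. The 10 neuron and glia markers stood at 18.4 and 2.89 FPKM in forestomach, 16.01 and 13.5 in hindstomach, 20.8 and 12.8 in intestine, and 37.6 and 117 in colon, and the 5 mesothelial markers at 97.6 and 39.2 FPKM in forestomach, 67.1 and 82.2 in hindstomach, 32.1 and 29.5 in intestine, and 34.9 and 53.1 in colon. The bone marker Bglap was at 21.6 FPKM in forestomach replicate 2 and at most 0.143 in the other 7 libraries, while Acan and Comp were under 1 FPKM in all 8. Bglap, Acan and Comp were chosen after their values were seen.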
